A study of Homo sapiens with 10 samples.

Results

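The genes examined were those that encode the proteasome. They were chosen by symbol, as genes with a protein-coding transcript whose name starts with PSMA to PSMG followed by a digit, and 49 of the 19655 genes with a protein-coding transcript met that rule. By role they comprised 7 subunits of the 20S alpha ring, 7 of the 20S beta ring, 5 inducible or tissue-specific 20S subunits, 6 ATPases and 11 non-ATPase subunits of the 19S cap, 5 other caps or inhibitors, 7 assembly chaperones, and PSMC3IP, whose name fits the rule although it is a recombination factor and no proteasome subunit. Of the 49 genes, 46 passed the filter on low values and were tested. The testis subunit PSMA8 had no count in any library, the thymus subunit PSMB11 had 2 counts in all, and the inducible subunit PSMB8 had 34 counts, so these 3 were not tested.

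Transcriptomes were measured in Caco-2 cells, a human colon carcinoma line that takes on features of intestinal epithelium in culture. All cells came from a puromycin-selected monoclonal line that carried dCas9-KRAB, a Cas9 that cannot cut and is joined to a transcriptional repressor, so that every group shares the properties of 1 clone. This line was infected with lentivirus carrying guide RNA g1 or g2 against the long noncoding RNA LHFPL3-AS2, or with the empty guide plasmid as control (gCtl), and the guide vector carries hygromycin resistance. There were 5 gCtl, 3 g1 and 2 g2 libraries, all of the QuantSeq type, which are primed on the poly(A) tail and read the 3' ends of transcripts. The labels carry no replicate numbers and do not say whether libraries came from separate cultures, so replicates are numbered here only as names and p-values measure the spread between these libraries, which may be technical.

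Library totals ranged from 3838803 to 8730468 estimated counts, of which the 49 genes took 0.363% to 0.478%. LHFPL3-AS2 itself was near the detection limit and was not lower in the libraries labelled g1 or g2 (2.03 to 6.01 RPM, reads scaled to a common library total) than in gCtl (0.840 to 3.73 RPM), so directions below are those of the libraries as labelled. Epithelial markers were present (EPCAM 670.0 to 872 RPM, VIL1 122 to 187 RPM), while SI, a marker of mature enterocytes, was near 0. GAPDH stood at 163 to 422 RPM in gCtl and 68.3 to 134 RPM in the guide libraries, and SI at 0 to 0.361 RPM in gCtl and 0.956 to 2.86 RPM in the guide libraries. Whether either has a part in the results below was not tested. Of the other markers checked, COL1A1 reached at most 8.60 RPM and the blood cell markers PTPRC, CD3E and HBB at most 1.12, 1.08 and 0.115 RPM. CD14, another blood cell marker, stood at 2.47 to 4.0 RPM in gCtl and 0.273 to 1.56 RPM in the guide libraries. These 4 summed to 2.83 to 4.5 RPM in gCtl, 1.95 to 2.855 RPM in g1 and 0.410 to 0.653 RPM in g2, and their part in the results was not tested.

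The proteasome is the protease that degrades proteins tagged with ubiquitin in the cytosol and nucleus. Its 20S core is a barrel of alpha and beta rings. The alpha rings gate the entry, and PSMB6, PSMB7 and PSMB5 in the beta rings carry the caspase-like, trypsin-like and chymotrypsin-like active sites. The 19S cap binds ubiquitin chains, unfolds the substrate with a ring of ATPases and feeds it into the core. Inflammatory signals such as interferon gamma raise PSMB9, PSMB10 and PSMB8, which replace PSMB6, PSMB7 and PSMB5 in the immunoproteasome, and the cap PSME1-PSME2, and this form is best known for making peptides for antigen presentation. When proteasome activity is low, the transcription factor NFE2L1 raises the genes of core and cap together.

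The promoters printed here were chosen because their genes carry the results below: PSMB4 and PSMB10 were called lower and PSMC1 higher with each guide, and PSMB9 is the other inducible subunit that could be tested. PSMB1 and PSMB6 were also called lower with each guide, but the RefSeq promoters used here included neither. Each is the 250 bases before the RefSeq transcript start on GRCh38.p14, written in the direction of the gene. Capitals mark matches on either strand to CCAAT, to TGACNNNGC (the core of the element bound by NFE2L1 and its relatives) or to an interferon-type element of GAAA, any 2 bases and GAAA.
PSMB4: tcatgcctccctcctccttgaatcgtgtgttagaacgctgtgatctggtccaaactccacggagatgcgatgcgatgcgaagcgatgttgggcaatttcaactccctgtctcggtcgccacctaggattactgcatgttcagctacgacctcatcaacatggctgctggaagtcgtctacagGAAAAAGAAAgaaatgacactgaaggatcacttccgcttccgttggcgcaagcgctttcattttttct
PSMB10: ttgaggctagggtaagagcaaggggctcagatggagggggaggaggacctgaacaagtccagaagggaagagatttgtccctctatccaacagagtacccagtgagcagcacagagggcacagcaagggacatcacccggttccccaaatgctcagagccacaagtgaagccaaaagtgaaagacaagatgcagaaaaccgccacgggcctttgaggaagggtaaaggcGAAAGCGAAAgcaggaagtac
PSMB9: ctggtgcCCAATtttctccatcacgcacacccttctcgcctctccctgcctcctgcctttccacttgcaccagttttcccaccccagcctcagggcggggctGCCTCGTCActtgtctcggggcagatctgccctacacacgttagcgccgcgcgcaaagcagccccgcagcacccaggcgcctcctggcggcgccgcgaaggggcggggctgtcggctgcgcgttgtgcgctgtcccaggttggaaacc
PSMC1: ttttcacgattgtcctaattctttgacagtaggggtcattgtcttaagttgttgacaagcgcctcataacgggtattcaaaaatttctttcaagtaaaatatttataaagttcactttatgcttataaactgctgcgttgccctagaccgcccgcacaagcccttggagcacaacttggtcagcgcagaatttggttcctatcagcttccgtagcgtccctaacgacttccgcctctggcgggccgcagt
PSMB4 (chr1:151399323-151399572, plus strand) and PSMB10 (chr16:67936851-67937100, minus strand) each held 1 match to the interferon-type element. PSMB9 (chr6:32853942-32854191, plus strand) held 1 match to CCAAT and 1 to TGACNNNGC, and PSMC1 (chr14:90256303-90256552, plus strand) held none of the 3. The RefSeq table used here had 53 promoters of 43 of the 49 genes, and 24.5% of them held TGACNNNGC against 10.9% of all 35116 promoters. CCAAT was found in 39.6% against 32.0%, and the interferon-type element in 9.43% against 3.02%. By part, TGACNNNGC was held by 2 of 14 promoters of the 20S core (14.3%) and 3 of 18 of the 19S cap (16.7%). It was held by 4 of 7 promoters of the assembly chaperones and 3 of 6 of the other caps and inhibitor. The interferon-type element was held by 2 of 14 core promoters and 0 of 18 cap promoters. Some genes have several promoters, and a match describes letters and not a bound site.

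A gene was called changed at an adjusted p of at most 0.05 (edgeR's quasi-likelihood test, Benjamini-Hochberg over 11640 genes) together with a fold change of at least 1.5. With g1 and g2 pooled against gCtl, 7 of the 46 proteasome genes were called lower, while 11% of all genes tested were, and 2 were called higher against 8.14% of all. The lower genes were the beta-ring subunits PSMB1, PSMB3, PSMB4 and PSMB6, the inducible subunit PSMB10, and the cap subunits PSMC2 and PSMD6, and the higher genes were PSMB9 and PSMC1. For g1 alone 9 genes were called lower (9.95% of all genes) and 1 higher (6.81% of all genes). For g2 alone 15 were called lower (13% of all genes) and 4 higher (10.7% of all genes). With library totals alone in place of TMM scaling, 12 proteasome genes were lower and 1 higher for g1 and g2 together, and 18 lower and 2 higher for g2. Under that scaling 1558 of all genes were lower and 686 higher together, and 2061 lower and 750 higher for g2, with median log2 fold changes of all genes of -0.07 and -0.16. Single libraries moved these counts. For g2, 5 genes in all were called without g2 replicate 2 and 11 without gCtl replicate 2, and for g1 and g2 together 14 were called without g2 replicate 1. The comparisons of each guide share the 5 gCtl libraries. In bulk RNA such as this, fewer cells with a transcript and less of it per cell cannot be told apart.

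Over the 46 genes the median log2 fold change was -0.26 for g1 and g2 together, -0.17 for g1 and -0.31 for g2, where the medians of all genes were 0.02, 0.01 and 0.00. Of the 46, 31 had a log2 fold change below 0 with g1 and g2 together. The libraries of the groups did not overlap for 7 proteasome genes that were lower and 2 that were higher, beside 8.33% and 7.13% of all genes.

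**Figure D1:**
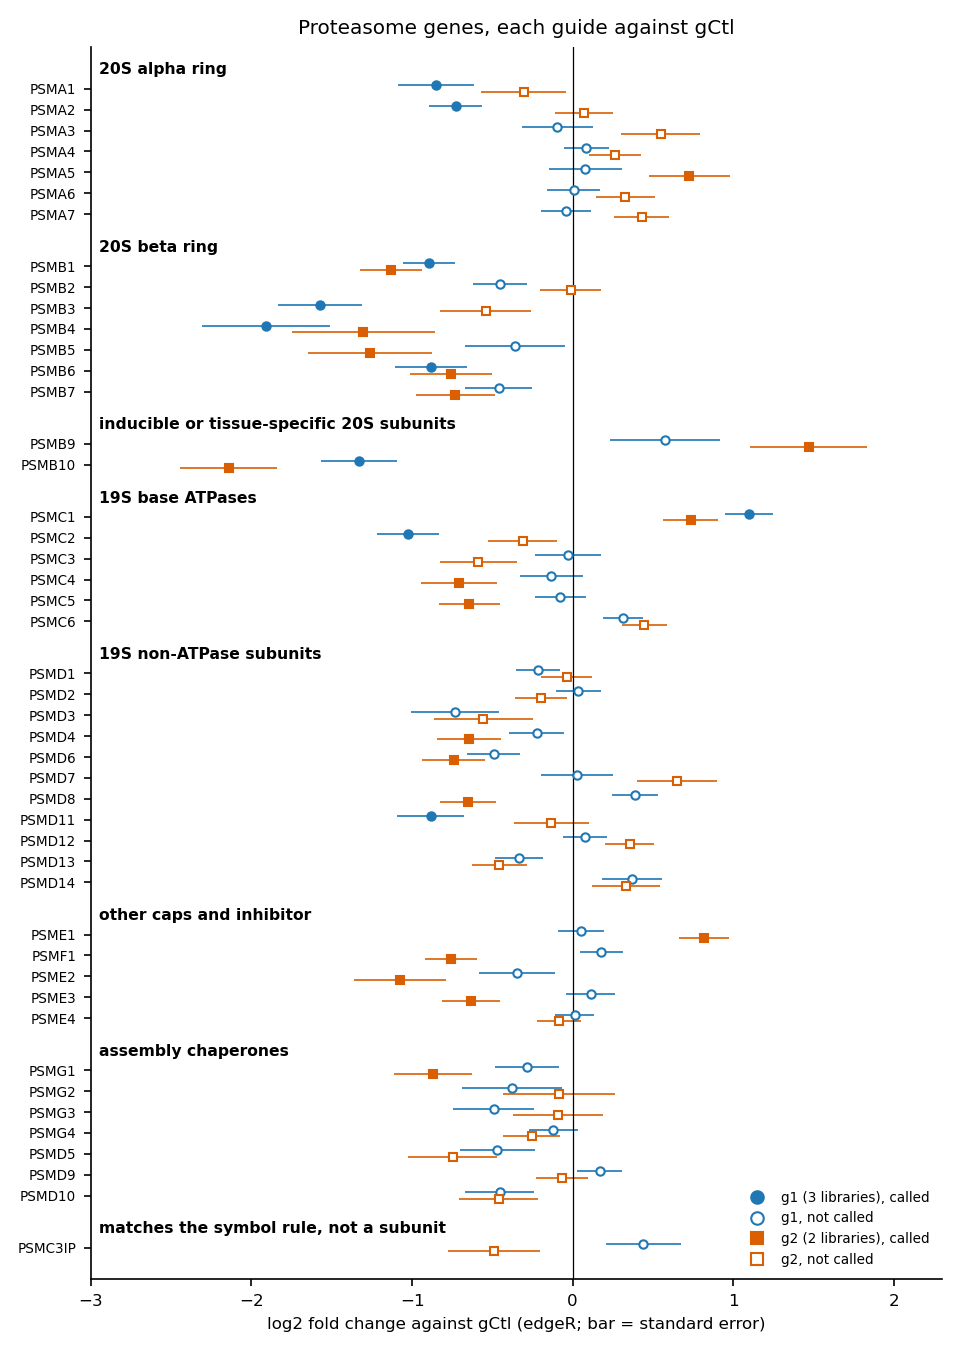
Log2 fold change of the 46 tested proteasome genes against gCtl, with g1 (circles, 3 libraries) and g2 (squares, 2 libraries) and bars of 1 standard error. Filled symbols mark genes called changed. All 7 beta-ring genes lie below 0 for both guides, the alpha ring lies on either side of 0, and PSMC1 is the gene called higher for g1.

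The beta ring held most of the called core genes. With g1 and g2 together 4 of its 7 genes were called lower and its median log2 fold change was -0.83, from -1.64 for PSMB4 to -0.26 for PSMB2. In the comparisons of the single guides all 7 values were again below 0, with medians of -0.88 for g1 and -0.76 for g2, and 4 genes were called lower for g1 and 5 for g2. Of all genes tested, 11% were called lower together, 9.95% for g1 and 13% for g2. DESeq2 called 3 of the 7 lower for g2.

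PSMB1, a structural beta subunit (chr6:170535117-170553341, minus strand), stood at 117, 127, 100.3, 128 and 87.3 CPM (counts scaled to a common library total after TMM normalisation) in gCtl, at 60.5, 56.3 and 63.2 CPM in g1 and at 43.2 and 58.7 CPM in g2. Every library of either guide lay below every gCtl library. Its log2 fold change was -0.99 ± 0.15 (SE) for g1 and g2 together (edgeR adjusted p = 0.000443), -0.90 ± 0.16 for g1 (edgeR adjusted p = 0.0015) and -1.13 ± 0.19 for g2 (edgeR adjusted p = 0.000718). The call held in each fit that left out 1 library.

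PSMB4, a structural subunit often used as a reference gene (chr1:151399534-151401944, plus strand), stood at 77.0, 51.6, 51.1, 72.7 and 23.6 CPM in gCtl, at 14.5, 10.8 and 18.0 CPM in g1 and at 35.7 and 9.30 CPM in g2. The groups overlapped through gCtl replicate 5, the lowest control, and g2 replicate 1, the highest guide library. The log2 fold change was -1.64 ± 0.35 together (edgeR adjusted p = 0.00409) and -1.91 ± 0.40 for g1 (edgeR adjusted p = 0.00387). For g2 it was -1.30 ± 0.45 (edgeR adjusted p = 0.0413), a call that was lost when any of gCtl replicates 1 to 4, g1 replicate 1 or g2 replicate 2 was left out (log2 fold change between -1.33 and -0.61). DESeq2 did not make the g2 call (-1.29, DESeq2 adjusted p = 0.0843).

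PSMB3, also structural, stood at 77.2, 61.9, 51.1, 56.1 and 30.8 CPM in gCtl, at 18.8, 15.6 and 20.8 CPM in g1 and at 48.6 and 27.6 CPM in g2. The g1 libraries lay below all others, while g2 replicate 1 lay within the range of gCtl and g2 replicate 2 just below it. The log2 fold change was -1.57 ± 0.26 for g1 (edgeR adjusted p = 0.00091) and -0.54 ± 0.28 for g2 (edgeR adjusted p = 0.17), and the difference between the guides did not pass the test (log2 difference 1.03 ± 0.31, edgeR adjusted p = 0.0632).

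Of the 3 subunits with active sites, PSMB6 stood at 42.5, 35.8, 37.3, 33.0 and 25.3 CPM in gCtl, at 18.7, 15.4 and 22.0 CPM in g1 and at 27.1 and 14.2 CPM in g2. Only g2 replicate 1 reached into the range of gCtl. The log2 fold change was -0.83 ± 0.19 together (edgeR adjusted p = 0.0069), -0.88 ± 0.22 for g1 (edgeR adjusted p = 0.0119) and -0.76 ± 0.26 for g2 (edgeR adjusted p = 0.0407). The g1 call was lost without g1 replicate 2 (-0.77). The g2 call was lost without any of gCtl replicates 1 to 4, g1 replicate 1 or g2 replicate 2 (-0.77 to -0.35).

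PSMB5, the subunit that proteasome inhibitors such as bortezomib bind, stood at 78.2, 79.0, 59.1, 62.1 and 61.9 CPM in gCtl, at 54.3, 47.2 and 57.2 CPM in g1 and at 48.1 and 9.30 CPM in g2. The guide libraries all lay below gCtl, and g2 replicate 2 stood far below the rest. It was called lower for g2 (log2 fold change -1.26 ± 0.38, edgeR adjusted p = 0.0245), not for g1 (-0.36 ± 0.31, edgeR adjusted p = 0.446), and not for g2 without replicate 2 (-0.50, edgeR adjusted p = 0.146) or by DESeq2 (-1.24, DESeq2 adjusted p = 0.0507).

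PSMB7 stood at 35.0, 59.1, 32.6, 33.7 and 30.1 CPM in gCtl, at 29.5, 23.8 and 29.6 CPM in g1 and at 21.3 and 24.6 CPM in g2. The groups did not overlap, though g1 replicate 3 and gCtl replicate 5 were close. The g2 call (-0.73 ± 0.25, edgeR adjusted p = 0.039) was lost without gCtl replicate 2, g2 replicate 1 or g2 replicate 2 (-0.83 to -0.51). With g1 and g2 together the log2 fold change of -0.56 ± 0.19 passed on p (edgeR adjusted p = 0.0406) but fell short of the fold minimum, which it passed when gCtl replicate 3 or 5, or g1 replicate 1 or 3, was left out (-0.65 to -0.61). PSMB2 was not called in any comparison (-0.26 ± 0.17 together, edgeR adjusted p = 0.263).

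**Figure D2:**
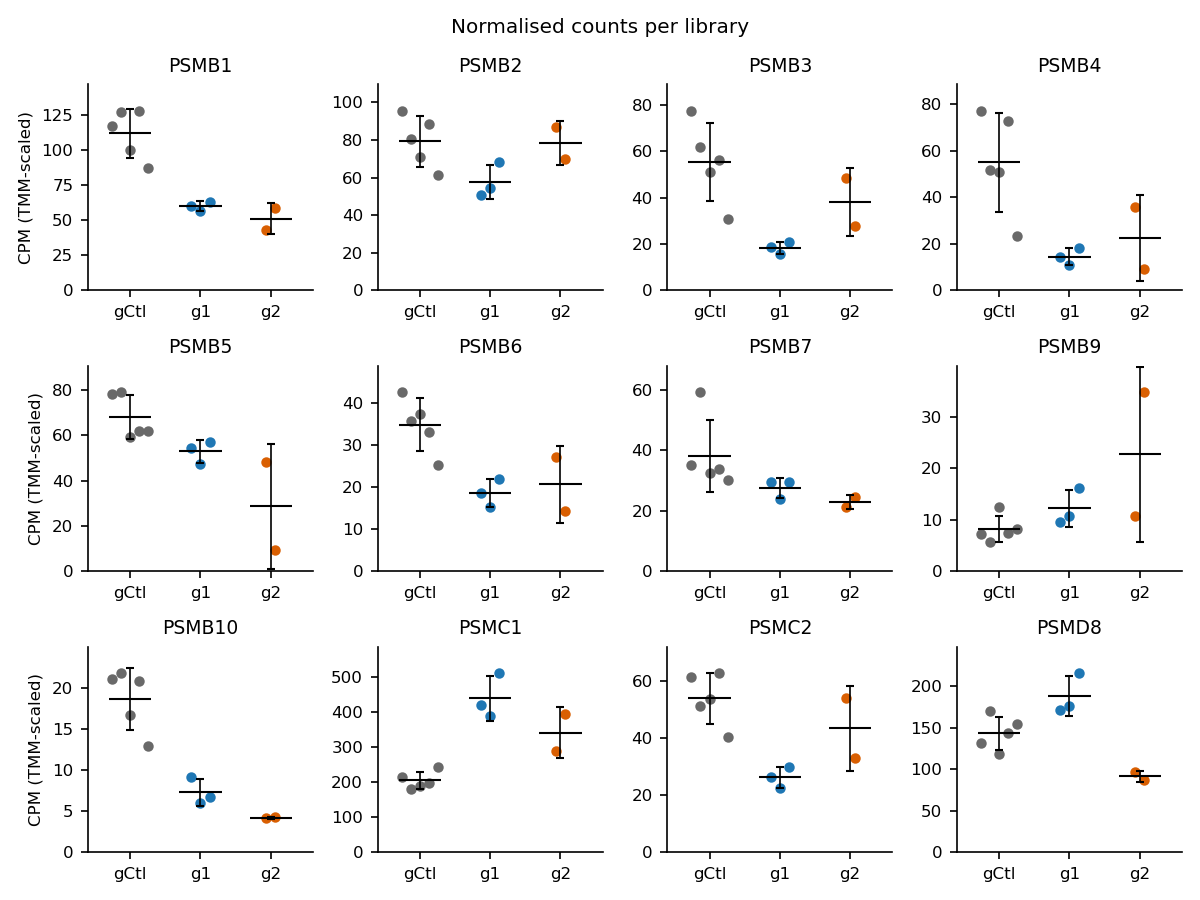
TMM-scaled CPM of 12 proteasome genes in each library, with bars for the group mean and SD (gCtl n = 5, g1 n = 3, g2 n = 2). PSMB1 and PSMB10 are lower in all guide libraries and PSMC1 is higher, while g2 replicate 2 is the lowest point for PSMB5 (9.30) and the highest for PSMB9 (34.8).

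The alpha ring differed from the beta ring in its values. With g1 and g2 together edgeR called 0 of its 7 genes, where 1 had an unadjusted p under 0.05 and DESeq2 called 1 lower (PSMA1), and the median log2 fold change was 0.16, from -0.61 for PSMA1 to 0.37 for PSMA5. PSMA7 was the most abundant proteasome gene per length in gCtl at 1068 ± 114 TPM (counts per transcript length, scaled to a common total, SD, n = 5) and stood at 1033 ± 44.9 TPM in g1 (n = 3) and 1296 ± 436 TPM in g2 (n = 2). Its log2 fold change was 0.17 ± 0.16 together (edgeR adjusted p = 0.491).

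For g1 alone PSMA1 (-0.85 ± 0.24, edgeR adjusted p = 0.0194) and PSMA2 (-0.73 ± 0.17, edgeR adjusted p = 0.00666) were called lower. PSMA2 stood at 90.0, 75.2, 73.2, 83.6 and 68.4 CPM in gCtl, at 55.3, 46.9 and 39.4 CPM in g1 and at 97.3 and 66.6 CPM in g2, so that the g1 libraries lay below all others. PSMA2 was higher in g2 than in g1 (0.80 ± 0.20, edgeR adjusted p = 0.0309), a call lost without g1 replicate 2, g1 replicate 3 or g2 replicate 1 (0.51 to 0.79), and without g2 replicate 1 it was called lower for g1 and g2 together (-0.60). PSMA1 was lost for g1 without gCtl replicate 4, g1 replicate 1 or g1 replicate 2 (-0.90 to -0.70), and without gCtl replicate 5 or g2 replicate 1 it was called lower for g1 and g2 together (-0.73 and -0.75).

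For g2 alone PSMA5 was called higher (0.73 ± 0.25, edgeR adjusted p = 0.0442), from 11.3 to 22.5 CPM in gCtl to 28.7 and 29.5 CPM in g2, and this call was lost in 6 of the 10 fits without 1 library, namely without gCtl replicate 2, 3 or 5, g1 replicate 2 or either g2 library (0.60 to 0.77).

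To set the rings beside each other, log2 CPM was averaged over the subunits of a ring in each library. The beta minus alpha difference was -0.36, 0.00, -0.36, -0.44 and -0.46 in gCtl, -0.99, -1.16 and -0.91 in g1 and -1.06 and -1.98 in g2. All guide libraries lay below all gCtl libraries, by 0.70 on average for g1 and 1.20 for g2, and by 0.74 for g2 without g2 replicate 2. This comparison was chosen after the values were seen and is given as a description, without a test.

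**Figure D3:**
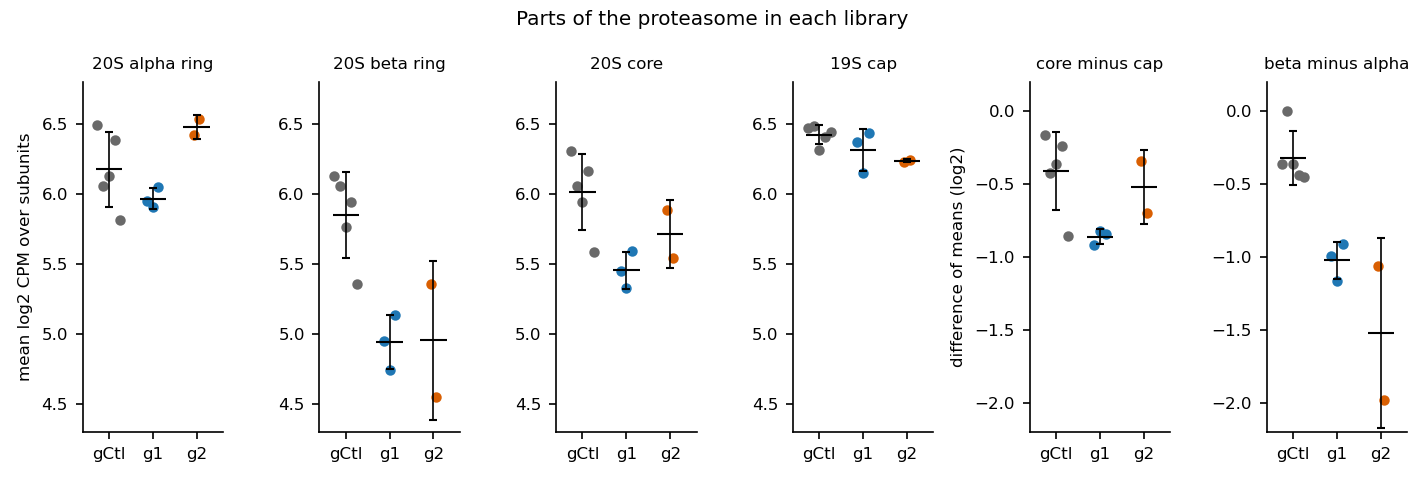
Mean log2 CPM over the subunits of the alpha ring (7), beta ring (7), 20S core (14) and 19S cap (17) in each library, and the 2 differences, with bars for the group mean and SD. The beta ring is lower in all guide libraries, though g2 replicate 1 and gCtl replicate 5 both round to 5.36, the alpha ring overlaps between groups, the cap overlaps for g1 but lies just below gCtl for g2, and gCtl replicate 5 (-0.85) lies among the g1 libraries in core minus cap.

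The core was then compared with the cap as a whole. Mean log2 CPM over 14 core minus that over 17 cap subunits was -0.16, -0.43, -0.37, -0.24 and -0.85 in gCtl, -0.92, -0.82 and -0.84 in g1 and -0.34 and -0.70 in g2. Against a gCtl mean of -0.41 ± 0.27 (SD, n = 5), the difference was -0.45 for g1 (mean -0.86 ± 0.05, n = 3), -0.11 for g2 (mean -0.52 ± 0.25, n = 2) and -0.31 for both together. The g1 libraries overlapped with gCtl through gCtl replicate 5, and g2 replicate 1 lay within the range of the other 4 controls. In gCtl replicate 5 the core mean of 5.59 log2 CPM was the lowest control value against 5.94 to 6.31 in the other controls. For g2 the sign depended on 1 library, since the difference was 0.07 without g2 replicate 2, and on the summing, since the log2 ratio of summed counts gave 0.05 for g2 and -0.18 for both together. Within the core, the log2 fold changes of 14 genes had a median of -0.46 with g1 and g2 together, and those of the 17 cap genes a median of -0.23, and 4 core genes and 2 cap genes were called lower (11% of all genes) and 0 core genes and 1 cap gene (PSMC1) higher (8.14% of all genes).

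The 2 inducible subunits that passed the filter moved in opposite directions. PSMB10, the trypsin-like subunit of the immunoproteasome (chr16:67934502-67937087, minus strand), stood at 21.0, 21.7, 16.6, 20.7 and 12.9 CPM in gCtl, at 9.14, 6.01 and 6.75 CPM in g1 and at 4.12 and 4.28 CPM in g2. The groups did not overlap. The log2 fold change was -1.61 ± 0.24 together (edgeR adjusted p = 0.000498), -1.33 ± 0.24 for g1 (edgeR adjusted p = 0.00149) and -2.14 ± 0.30 for g2 (edgeR adjusted p = 0.0002), and the call held in each fit without 1 library.

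PSMB9, which takes the place of PSMB6 and sits beside PSMB8 in the major histocompatibility region (chr6:32844136-32859585, plus strand), stood at 7.21, 5.67, 12.5, 7.48 and 8.15 CPM in gCtl, at 9.69, 10.7 and 16.2 CPM in g1 and at 10.8 and 34.8 CPM in g2. The groups overlapped through gCtl replicate 3, and g2 replicate 2 stood far above all others. It was called higher together (1.0 ± 0.34, edgeR adjusted p = 0.0452) and for g2 (1.47 ± 0.36, edgeR adjusted p = 0.00844), not for g1 (0.58 ± 0.34, edgeR adjusted p = 0.254). Without g2 replicate 2 the log2 fold change was 0.52 together and 0.39 for g2, and neither was called, and the call for both guides together was also lost without gCtl replicate 1, 2, 4 or 5 or g1 replicate 3 (up to 1.0).

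PSMB8, which was not tested, stood at 0.241 to 0.918 CPM in gCtl, at 0 to 0.333 CPM in g1 and at 2.33 and 0.581 CPM in g2, levels of at most 13 counts a library. In TPM, the log2 ratio of PSMB10 to PSMB7, the subunit it replaces, was -0.02, -0.70, -0.25, 0.03 and -0.48 in gCtl, -0.99, -1.33 and -1.38 in g1 and -1.73 and -1.79 in g2. That of PSMB9 to PSMB6 was -3.62, -3.46, -2.92, -3.31 and -2.83 in gCtl, -2.23, -1.82 and -1.91 in g1 and -2.65 and -0.27 in g2. So the first ratio was lower and the second higher in all guide libraries than in gCtl, as a description on the log2 scale with 1 TPM added. Both ratios rest on all transcripts, divided by length although the libraries read 3' ends. They were not taken on protein-coding transcripts alone, which held 4.40% of PSMB9 and 16.7% of PSMB10 counts.

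In the 19S base, PSMC1 (chr14:90256495-90275429, plus strand), an ATPase whose tail opens the alpha-ring gate, was the gene with the largest rise among the cap subunits. It stood at 216, 182, 188, 198 and 243 CPM in gCtl, at 418, 388 and 509.6 CPM in g1 and at 289 and 393 CPM in g2, and the groups did not overlap. The log2 fold change was 0.96 ± 0.15 together (edgeR adjusted p = 0.00071), 1.10 ± 0.15 for g1 (edgeR adjusted p = 0.000241) and 0.73 ± 0.17 for g2 (edgeR adjusted p = 0.00581). The g2 call was lost without g2 replicate 2 (0.50). PSMC1 has 13 annotated pseudogenes, of which none held more than 0.28% of its count.

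PSMC2, another ATPase of the ring, stood at 61.5, 51.4, 53.9, 62.8 and 40.6 CPM in gCtl, at 26.5, 22.6 and 30.0 CPM in g1 and at 54.2 and 33.0 CPM in g2. The g1 libraries lay below gCtl and g2 replicate 1 lay within it. It was called lower for g1 (-1.03 ± 0.19, edgeR adjusted p = 0.00207) and together (-0.70 ± 0.21, edgeR adjusted p = 0.0243), where the call was lost without gCtl replicate 1 or 4 or any g1 library (-0.67 to -0.59). The log2 fold change for g2 was -0.31 ± 0.21 (edgeR adjusted p = 0.296).

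PSMC4 (-0.71 ± 0.24, edgeR adjusted p = 0.0392) and PSMC5 (-0.64 ± 0.19, edgeR adjusted p = 0.0201) were called lower for g2 alone. PSMC4 was lost without any of gCtl replicates 1 to 4 or g2 replicate 2 (-0.71 to -0.41), and PSMC5 without gCtl replicate 2 or 5 or either g2 library (-0.67 to -0.58). PSMC6, named after its values were seen, was higher in all guide libraries (149 to 174 CPM) than in gCtl (109 to 136 CPM), with a log2 fold change of 0.37 ± 0.12 (edgeR adjusted p = 0.0323) that fell short of the fold minimum.

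Among the 11 non-ATPase cap subunits edgeR called 1 lower with g1 and g2 together, PSMD6 (11% of all genes), and 0 higher (8.14% of all genes). DESeq2 called 2 lower and 0 higher. PSMD6, which belongs to the lid, stood at 29.3, 30.2, 36.7, 29.6 and 35.1 CPM in gCtl, at 18.9, 25.7 and 24.1 CPM in g1 and at 20.8 and 17.7 CPM in g2, without overlap. Its log2 fold change of -0.59 ± 0.15 (edgeR adjusted p = 0.0119) lay at the fold minimum itself, and the call was lost without gCtl replicate 3 or 5, g1 replicate 1 or g2 replicate 2 (-0.56 to -0.53). For g2 alone it was -0.74 ± 0.20 (edgeR adjusted p = 0.012), lost without g2 replicate 2 (-0.62).

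PSMD8, a lid subunit, separated the guides. It stood at 131, 169, 118, 143 and 154 CPM in gCtl, at 172, 176 and 215 CPM in g1 and at 96.3 and 86.5 CPM in g2. The g1 libraries lay above all gCtl libraries and the g2 libraries below them. PSMD8 was lower in g2 than in g1 by 1.04 on the log2 scale (log2 difference -1.04 ± 0.19, edgeR adjusted p = 0.00559) and lower in g2 than in gCtl (-0.65 ± 0.17, edgeR adjusted p = 0.013), the latter lost without gCtl replicate 2 or g2 replicate 2 (-0.58 and -0.57). Its log2 fold change for g1 was 0.39 ± 0.14 (edgeR adjusted p = 0.069).

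PSMD4, a receptor for ubiquitin chains, was called lower for g2 (-0.65 ± 0.20, edgeR adjusted p = 0.0277), a call lost without gCtl replicate 2 or g2 replicate 1 (-0.56 and -0.42). PSMD11, a lid subunit that joins the cap to the core, was called lower for g1 (-0.89 ± 0.21, edgeR adjusted p = 0.00839), from 148 to 332 CPM in gCtl to 116 to 147 CPM in g1, and stood at 242 and 198 CPM in g2. Without gCtl replicate 5 or g2 replicate 1 it was also called lower for g1 and g2 together (-0.68 and -0.72). The extremes of the role were PSMD3 (-0.66 ± 0.23, edgeR adjusted p = 0.0514), whose guide libraries all lay below gCtl and which was called without g2 replicate 1 (-0.71), and PSMD14, the deubiquitinase of the lid (0.36 ± 0.17, edgeR adjusted p = 0.134).

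The other caps and the inhibitor were called for g2, except PSME4 (log2 fold change -0.08). For g1 edgeR and DESeq2 called 0 of the 5 and none had an unadjusted p under 0.05, while for g2 3 were called lower (13% of all genes) and 1 higher (10.7% of all genes). The members of the interferon-inducible cap PSME1-PSME2 were called in opposite directions for g2: PSME1 was higher (0.82 ± 0.16, edgeR adjusted p = 0.00176) and PSME2 lower (-1.07 ± 0.29, edgeR adjusted p = 0.0125). PSME1 stood at 51.0, 48.7, 38.9, 42.8 and 40.3 CPM in gCtl, at 49.7, 48.3 and 39.9 CPM in g1 and at 81.1 and 75.3 CPM in g2, so that the g2 libraries stood above the rest. PSME2 ranged from 19.5 to 36.2 CPM in gCtl and from 18.4 to 24.8 CPM in g1, and was at 8.43 and 16.9 CPM in g2, a call lost without g2 replicate 1 (-0.68). PSME2 was called lower for g1 and g2 together without gCtl replicate 5 or g1 replicate 1 (-0.71 and -0.75).

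PSME3, the nuclear cap (-0.63 ± 0.18, edgeR adjusted p = 0.0193), and PSMF1, an inhibitor of the core (-0.76 ± 0.16, edgeR adjusted p = 0.00363), were called lower for g2. PSMF1 stood at 51.3 to 61.7 CPM in gCtl, 59.7 to 66.2 CPM in g1 and 36.9 and 29.1 CPM in g2. Both g2 calls were lost without g2 replicate 2 (-0.35 for PSME3 and -0.59 for PSMF1), and that of PSME3 also without gCtl replicate 1 (-0.57).

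The test of g2 against g1 called 3 proteasome genes lower (3.42% of all genes) and 2 higher (1.56% of all genes). Without g1 replicate 2 or g1 replicate 3 it called 3 genes in all, and without g2 replicate 1 it called 8. The 5 genes were PSMD8, PSMF1 (-0.94 ± 0.17, edgeR adjusted p = 0.00615) and PSME3 (-0.75 ± 0.20, edgeR adjusted p = 0.0401), and PSMA2 and PSME1 (0.77 ± 0.17, edgeR adjusted p = 0.0192). PSME3 was lost in 7 of 10 fits without 1 library, namely all but those without gCtl replicate 1, gCtl replicate 5 or g2 replicate 1 (-0.77 to -0.45).

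Of the 7 assembly chaperones, edgeR and DESeq2 called 0 with g1 and g2 together and 3 had an unadjusted p under 0.05, and 6 had a log2 fold change below 0. PSMG1, which with PSMG2 builds the alpha ring, was called lower for g2 (-0.87 ± 0.24, edgeR adjusted p = 0.0152), from 25.5 to 49.8 CPM in gCtl to 21.2 and 21.4 CPM, and the call was lost without either g2 library (-0.87 each). Without gCtl replicate 5 or g1 replicate 2 PSMG1 was also called for g1 and g2 together (-0.62 and -0.61). The extremes were PSMD5, which guards the base during assembly (-0.57 ± 0.21, edgeR adjusted p = 0.0578), and PSMD9 (0.08 ± 0.13, edgeR adjusted p = 0.695), and PSMD5 was called without g1 replicate 3 or g2 replicate 1 (-0.66 and -0.67). PSMC3IP, the gene that is no subunit, had a log2 fold change of 0.14 ± 0.26 (edgeR adjusted p = 0.738).

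The estimated counts of many of these genes rested on transcripts that are not annotated as protein-coding. In the proteasome genes as a whole 72.4% to 77.4% of the counts of a library lay on protein-coding transcripts, against 78.6% to 83.2% over all genes with such a transcript. The share over all libraries was 4.40% for PSMB9, 9.26% for PSMA1, 14.3% for PSMB3, 16.7% for PSMB10, 30.4% for PSMC1 and 31.5% for PSMB4, and it was above 97% for PSMB1, PSMB5, PSMB6 and PSMB7. When genes were counted on protein-coding transcripts alone, 5 of the 9 calls for g1 and g2 together remained, those of PSMB1, PSMB4, PSMB6, PSMC1 and PSMC2. For g1 5 of 10 calls remained, those of the same 5 genes, and for g2 7 of 19, those of PSMB1, PSMB5, PSMC1, PSMD4, PSMD8, PSME3 and PSMG1. Several of the g2 calls lost had log2 fold changes about as large on coding transcripts, as with -1.48 in place of -1.30 for PSMB4, -0.74 in place of -0.76 for PSMB6, -0.69 in place of -0.73 for PSMB7, -0.78 in place of -0.71 for PSMC4, -0.70 in place of -0.74 for PSMD6 and 0.76 in place of 0.73 for PSMA5, with edgeR adjusted p between 0.0521 and 0.108.

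PSMB9 then had a log2 fold change of -0.35 together (edgeR adjusted p = 0.749) on 33 counts, and PSMB10 one of -0.74 (edgeR adjusted p = 0.622) on 108 counts. For PSMB10 by guide it was -0.09 for g1 (edgeR adjusted p = 0.961) and -3.28 for g2 (edgeR adjusted p = 0.13). PSMB3 had -0.63 (edgeR adjusted p = 0.191). PSME1 for g2 turned from 0.82 to -0.83 (edgeR adjusted p = 0.328), and 61.5% of its counts over all libraries lay on 1 processed transcript. On these counts PSMC3, named after its values were seen (-1.41, edgeR adjusted p = 0.00245) was called lower and PSMA2 (0.95, edgeR adjusted p = 0.0109) higher for g2, and PSME2 (-1.23, edgeR adjusted p = 0.0455) lower for g1. The beta minus alpha difference kept its separation, with means of -0.42 in gCtl, -1.10 in g1 and -1.62 in g2, while core minus cap shrank to -0.13 for g1 and -0.06 for g2.

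The g1 calls of PSMD11 and PSMA2 were not made on protein-coding transcripts. A retained-intron transcript of PSMD11 had 647, 324, 521, 572 and 71.0 estimated counts in gCtl, 0 in each g1 library, and 129 and 137 in g2, and on protein-coding transcripts the log2 fold change for g1 was -0.19 (edgeR adjusted p = 0.394). A transcript of PSMA2 annotated as subject to nonsense-mediated decay had 209, 214, 152, 176 and 83.8 estimated counts in gCtl, 0, 36.2 and 48.5 in g1, and 13.5 and 0 in g2, and the log2 fold change for g1 on coding transcripts was -0.02 (edgeR adjusted p = 0.954). In both, gCtl replicate 5 was the lowest control. Reads at the 3' end of a gene can fit several of its transcripts, and how Kallisto divided them was not tested.

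Counts of some of these genes cannot be told apart with certainty from those of a neighbour where exons overlap. Use of strand would not separate genes on the same strand. For opposite strands the sources used here do not say whether strand was used. PSMB10 shares 644 exon bases on the same strand with CTC-479C5.12 (AC040162.1), which stood at 32.5 to 52.8 RPM in gCtl, 41.8 to 47.1 RPM in g1 and 25.0 and 46.3 RPM in g2. PSMA1, PSMA2, PSMA6 and PSMD9 also share exons with a gene on the same strand, as PSMD9 does with WDR66 over 436 bases. On the opposite strand, PSMC1 overlaps NRDE2 over 4671 bases, PSMD7 overlaps a processed transcript over 842 bases, PSMC5 overlaps FTSJ3 over 874 bases, PSME3 overlaps BECN1 over 300 bases, and PSMB9 overlaps PSMB8 over 139 bases.

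**Figure D4:**
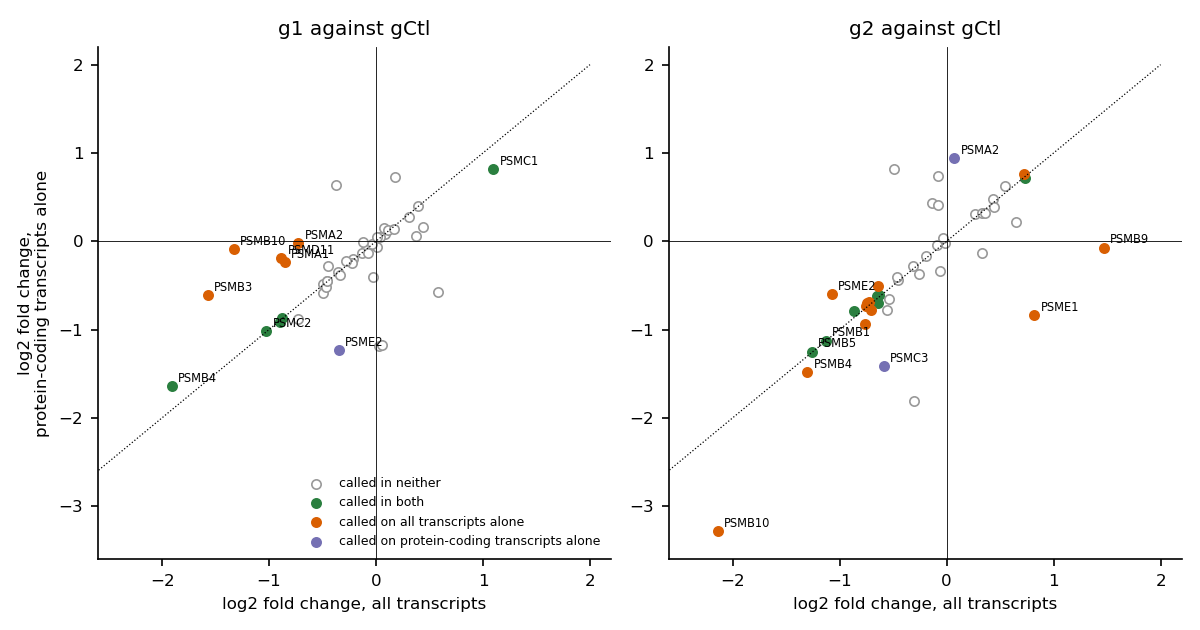
Log2 fold change of the 46 genes on protein-coding transcripts alone against that on all transcripts, for g1 and for g2, with the line of equal values dotted. Colours mark in which of the counts a gene was called. PSMB1 and PSMC1 keep their direction and call for both guides, while PSMB9 and PSME1 lie far below the line for g2 and PSMB3, PSMB10, PSMD11 and PSMA2 above it for g1.

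The partners of the proteasome outside the PSM symbols were taken as 4 lists. Their calls are from the main edgeR fit, and how they depend on single libraries or on processing is not given here. Of 6 genes for ubiquitin and its activating enzymes, 2 were called lower for g2 (13% of all genes) and 0 higher (10.7% of all genes). UBB, a polyubiquitin gene (-1.10 ± 0.25, edgeR adjusted p = 0.00534), and RPS27A, a fusion of ubiquitin and a ribosomal protein (-1.23 ± 0.20, edgeR adjusted p = 0.000487), were called lower. RPS27A stood at 4954 to 7271 CPM in gCtl, 6556 to 8094 CPM in g1 and 2477 and 2764 CPM in g2, and was lower in g2 than in g1 (-1.44 ± 0.21, edgeR adjusted p = 0.00124).

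Of 18 partners that deliver substrates or bind the proteasome, 1 was called lower and 1 higher with g1 and g2 together. Of all genes 11% were called lower and 8.14% higher. The 2 partners were SHFM1, a small subunit of the cap (-0.60 ± 0.19, edgeR adjusted p = 0.0367), and RAD23B, a shuttle for ubiquitinated proteins (0.63 ± 0.15, edgeR adjusted p = 0.00867), and each was also called for g1 (-0.81 ± 0.20, edgeR adjusted p = 0.0111, and 0.77 ± 0.15, edgeR adjusted p = 0.00257). ADRM1, the cap's ubiquitin receptor beside PSMD4, stood at 138 to 172 CPM in gCtl, 97.4 to 139 CPM in g1 and 39.3 and 52.0 CPM in g2. It was called lower for g2 (-1.70 ± 0.19, edgeR adjusted p = 3.21e-05) and lower in g2 than in g1 (-1.37 ± 0.20, edgeR adjusted p = 0.00124). DDI2, the protease that activates NFE2L1, was called higher for g2 (0.62 ± 0.17, edgeR adjusted p = 0.0152). For g2 ADRM1 and DDI2 were the 1 lower and the 1 higher of the 18, beside 13% and 10.7% of all genes.

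Among 5 assembly and transcription factors AKIRIN2, which brings the proteasome into the nucleus, was called higher together (0.59 ± 0.17, edgeR adjusted p = 0.0186) and for g2 (0.66 ± 0.21, edgeR adjusted p = 0.0304). No other of the 5 was called in either comparison, where 8.14% and 10.7% of all genes were called higher. The fold changes together of AKIRIN2 (1.51) and of SHFM1 above (1.51 lower) lay close to the minimum of 1.5. NFE2L1 had a log2 fold change of 0.37 ± 0.15 together (edgeR adjusted p = 0.0784), with 99.1 to 135 CPM in gCtl and 133 to 204 CPM in the guide libraries. POMP, the chaperone that matures the beta ring, had -0.27 ± 0.14 together (edgeR adjusted p = 0.179). The 2 g2 libraries of POMP (194 and 184 CPM) lay below gCtl (227 to 315 CPM). Its log2 fold change for g2 of -0.55 ± 0.16 passed on p (edgeR adjusted p = 0.0197) but fell short of the fold minimum.

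Of 6 immunoproteasome neighbours, 4 were tested, and TAP2, which with TAP1 carries peptides into the endoplasmic reticulum, was called lower for g1 and g2 together (-0.98 ± 0.23, edgeR adjusted p = 0.00749), for g1 (-0.84 ± 0.26, edgeR adjusted p = 0.0303) and for g2 (-1.20 ± 0.31, edgeR adjusted p = 0.0102). No other of the 4 was called in these comparisons, where 11%, 9.95% and 13% of all genes were called lower. TAP2 stood at 8.80 to 17.0 CPM in gCtl, 6.58 to 10.1 CPM in g1 and 7.17 and 5.23 CPM in g2.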

How the data were processed

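The deposited values were estimated counts per transcript, which the authors obtained with Kallisto (version 42.5 per the labels) from QuantSeq libraries against GENCODE transcripts. Whether strand was used is not given in the sources used here. Estimated counts were summed per gene and rounded, and a gene with a protein-coding transcript was tested when it exceeded 3 RPM in at least 20% of the 10 libraries. edgeR 4.0.16 in R 4.3.3 was run with TMM scaling, with g1 and g2 together against gCtl in a fit of 2 groups and each guide in a fit of 3 groups. Calls combined an adjusted p no higher than 0.05 with a minimum fold change of 1.5. DESeq2 1.42.0 and limma 3.58.1 served as alternatives, and counting on protein-coding transcripts alone was an alternative chosen after seeing the data. The fits were tested on simulated data with the same dispersion for every gene and the same change in all guide libraries. Outlying libraries and differences between the guides were not simulated, so the test does not cover them. Named genes were all those called, the active-site and inducible subunits, the extremes of each role, genes not tested, called partners, POMP and NFE2L1. Genes and lists were chosen with earlier results of these data known. Totals of 3838803 to 8730468 counts per library, the number of libraries and the spread between them all bear on the precision.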

Additional observations from a re-analysis of the deposited data

Results flagged for a closer look

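In 4 of the 62 groups of libraries examined, 1 library stood apart by Dixon's criterion, which chance flags in about 1 in 20 groups. The guide libraries pool 2 guides, for which that rate need not hold. Among the 5 guide libraries g2 replicate 2 stood apart for PSMB5 (9.30 CPM) and for PSMB9 (34.8 CPM), and g1 replicate 2 for PSMD3 (2.96 CPM). Among the gCtl libraries replicate 2 stood apart for PSMB7 (59.1 CPM).

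The guides differed by the test of g2 against g1 for 5 genes. The log2 difference was 0.80 for PSMA2 and 0.77 for PSME1, and it was -1.04 for PSMD8, -0.94 for PSMF1 and -0.75 for PSME3.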

How the results depend on the processing

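No paired analysis was possible because the labels carry no replicate numbers. On protein-coding transcripts alone, chosen after seeing the data, 5, 6, 9 and 1 proteasome genes were called for g1 and g2 together, g1, g2, and g2 against g1, in place of 9, 10, 19 and 5, and core minus cap for g1 was -0.13. Of all 11369 genes then tested 1760, 1513, 2034 and 320 were called, and with all transcripts 2232, 1951, 2757 and 580 of 11640. Testing against a fold change of 1.5 (glmTreat) called 3, 4, 2 and 0 proteasome genes, and 488, 506, 802 and 92 of all genes, with 4 proteasome genes at an unadjusted p under 0.05 in the last comparison. With g1 and g2 as separate groups in the fit and their mean set against gCtl, 14 were called for both guides together, beside 2705 of all genes. With gCtl left out of the fit, 1 was called for g2 against g1, beside 159 of all genes. The log2 ratio of summed core to summed cap counts was 0.05 for g2. Leaving out 1 library gave 7 to 14, 8 to 11, 5 to 19 and 3 to 8 calls, and core minus cap from -0.42 to -0.25 together, from -0.56 to -0.39 for g1 and from -0.29 to 0.07 for g2. Where a group was left with 1 library, it was assumed to vary like the others. Of 64 named results, DESeq2 left 60 with the same sign and on their side of the threshold. Protein-coding transcripts alone left 33, where 22 calls were lost with the sign kept and 9 values changed sign. Testing against a fold change of 1.5 left 30 and lost 34 calls. The other processing choices left 50 to 64. For g1 and g2 together, protein-coding transcripts turned the log2 fold change of PSMA2 to 0.45, PSMB9 to -0.35, PSMD11 to 0.093, PSMD14 to -0.012, PSME1 to -1.03, PSMF1 to 0.27 and PSMD9 to -0.034, and for g2 that of PSMB9 to -0.072 and PSME1 to -0.83. PSMD8 turned to -0.020 with library totals, -0.11 with limma on RPM, -0.075 with limma on TPM and -0.13 with the guides as separate groups in the fit. It was -0.0058, -0.0082 and -0.12 without gCtl replicate 3, g1 replicate 2 and g1 replicate 3, in a range up to 0.19 over all fits without 1 library. Without g2 replicate 2 PSMF1 was 0.011 and PSME3 0.00058, the latter in a range down to -0.24. PSMD9 was -0.0089 with library totals and -0.019 with limma on RPM. PSMC3IP was -0.041 with limma on RPM and -0.024 with the guides as separate groups in the fit. Without g1 replicate 3 it was -0.17, in a range up to 0.25. The cause was not tested in any of these.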
